A study of Mus musculus with 12 samples.

Results

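The ligands and receptors of the tumour necrosis factor (TNF) superfamily were examined in B16 cells, a mouse melanoma line, after knockdown of Sdc1 and stimulation with interferon gamma (IFNγ). Members were the genes with a Tnfsf or Tnfrsf symbol plus a number and an optional letter, together with Fas, Fasl, Cd40, Ltbr, Ngfr, Tnf, Lta and Ltb, and 1 gene was left out by the rule. This gave 38 of the 56093 entries of the count table, 15 ligands and 23 receptors. Of these, 16 had enough counts to be tested, 3 ligands and 13 receptors, among 14089 genes tested in all.

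The cells carried a short hairpin RNA against Sdc1, which encodes the cell-surface proteoglycan syndecan-1, or against RFP as the control, and both kinds were left unstimulated or given IFNγ at 10 ng/ml for 24 h. The 4 groups of 3 libraries are named here as shRFP and shSdc1, each without or with IFNγ. All came from the same line, grown in culture with serum and antibiotics. Hairpins were introduced by transfection per the labels, and the number of hairpins is not stated there, so off-target effects of a hairpin and effects of losing Sdc1 cannot be told apart. Nothing in the labels tells if the libraries of 1 group are separate cultures; p-values therefore measure only the spread between these libraries, and that spread may be technical.

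TNF family ligands are trimers on the cell surface or shed from it, and they act by clustering their receptors. Receptors with a death domain recruit adaptors that can activate caspases. The others bind TRAF proteins and mainly activate NF-κB and MAP kinases, and decoy receptors bind a ligand without passing on the full signal. On tumour cells the family is known for the killing of cells by TNF and TRAIL, on lymphocytes for costimulation.

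The libraries held 14337771 to 21548940 counts, of which the 38 members took 0.0259 to 0.0513%. Sdc1 ranged over 73.9 to 76.4 CPM (counts scaled to a common library size) in shRFP and 22.1 to 25.7 in shSdc1, and over 79.6 to 102.7 and 25.1 to 27.0 CPM in the same cells with IFNγ, so no knockdown library reached a control library. In shSdc1 replicate 3, 1 unnamed entry (ENSMUSG00000119584) took 4.79% of all counts, while the other 11 libraries had 0.0842 to 0.195% there. All 7 melanocyte markers examined passed the minimum count, and their summed level was 16614 to 18170 CPM in the control libraries with IFNγ, 17245 to 17292 in those without, and 11747 to 13369 in the knockdown libraries. Of 11 leukocyte markers, Cd3e, Itgax and Adgre1 had 0 counts in every library and Cd68, Lyz2 and Cd79a were kept. The 11 summed to 3.11 to 3.44 CPM in shRFP, 8.57 to 9.20 in shSdc1, 6.73 to 9.02 in shRFP with IFNγ and 16.01 to 17.4 in shSdc1 with IFNγ, and the part of such cells in the results was not tested. In these bulk libraries, fewer cells of a kind and less RNA per cell cannot be told apart.

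CPM values were also scaled for library composition. A log2 fold change is given with its standard error (SE), and a gene rose or fell where the edgeR quasi-likelihood test gave a Benjamini-Hochberg adjusted p under 0.05 over all 14089 genes. Of the 16 members tested, 7 rose and 1 fell in shSdc1 against shRFP, where 28.6% of all genes tested passed, 14% higher and 14.6% lower. With IFNγ present, 6 rose and 2 fell with the knockdown, where 36.3% of genes passed, 18.9% higher and 17.4% lower. After IFNγ, 6 rose and 0 fell in control cells, where 31.6% passed, 17.2% higher and 14.4% lower, and 8 rose and 0 fell in knockdown cells, where 30.5% passed, 17.5% higher and 13% lower. At an unadjusted p under 0.05 these last counts were 9 higher and 0 lower, and 8 higher and 1 lower, and DESeq2 gave 6 and 0, and 8 and 0. The shares of all genes at the unadjusted threshold were not counted. Upper-quartile scaling turned the split over all genes to 1759 higher and 2811 lower in control cells and to 2047 and 2495 in knockdown cells.

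Without shSdc1 replicate 3 the number that rose with the knockdown in unstimulated cells was 4 instead of 7, since the calls of Tnfrsf10b, Tnfrsf1b and Tnfrsf21 ended. Of the 7 and 6 members that rose with the knockdown without and with IFNγ, 5 were shared: Ltbr, Ngfr, Tnfrsf10b, Tnfrsf12a and Tnfrsf9. Tnfrsf22, the 1 member that fell without IFNγ, was among the 2 that fell with it. All 6 members that rose with IFNγ in control cells were among the 8 that rose in knockdown cells. The same overlaps over all genes tested were not counted, so the sharing is not known to be particular to the family. The counts describe the 16 members tested only. Some of these had enough counts only in the groups where they were high: Tnfsf10 in the groups with IFNγ, Tnfrsf9 and Ngfr in the knockdown groups, and Tnfrsf1b and Tnfrsf21 in every group but shRFP.

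**Figure D1:**
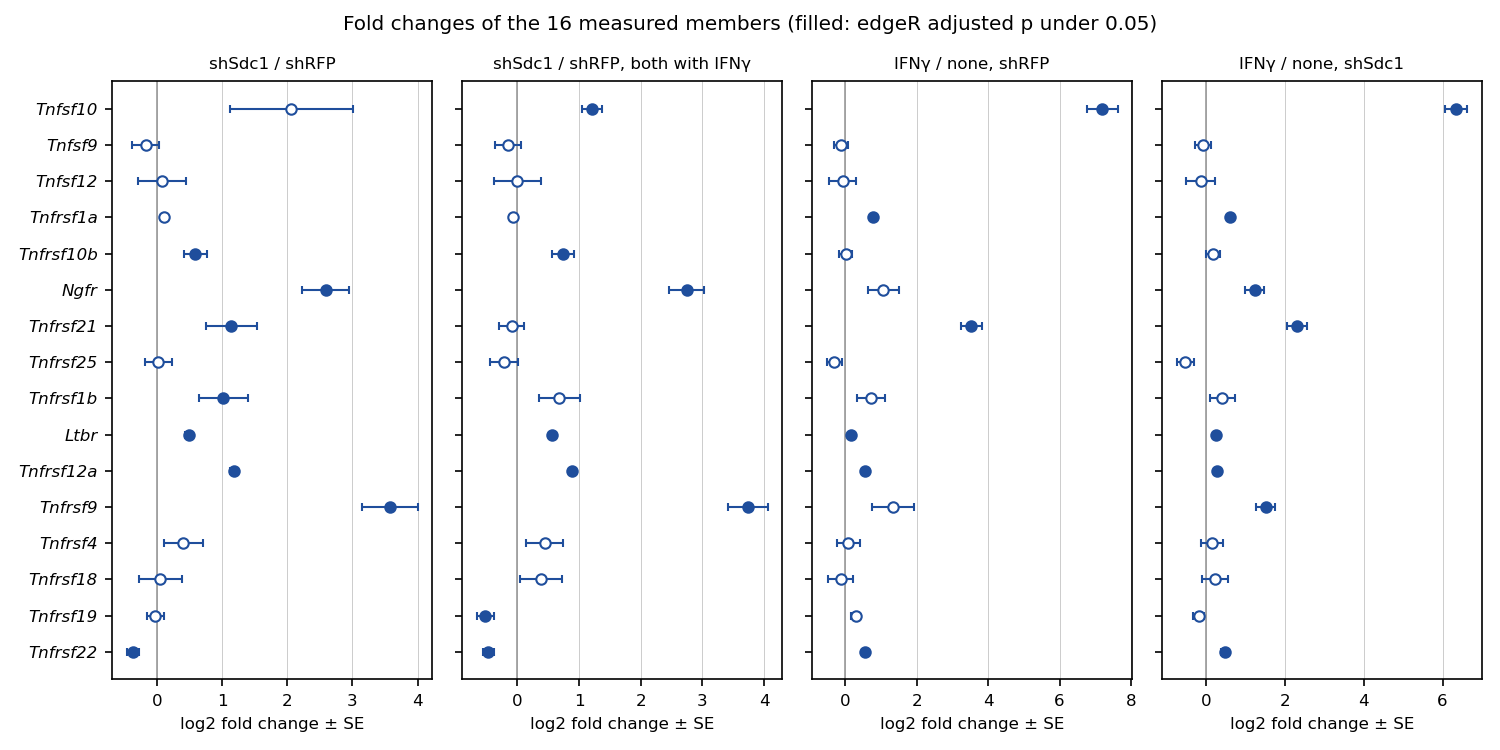
Log2 fold changes with SE (horizontal axes) of the 16 members tested, 1 row each, in the 4 comparisons between groups; filled points passed the edgeR test at an adjusted p under 0.05. Filled points lie right of 0 for 7, 6, 6 and 8 members and left of 0 for 1, 2, 0 and 0, and Tnfsf10 lies farthest to the right in both comparisons of IFNγ with none.

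The promoters of 4 members are printed because these genes stand for the patterns that follow: Tnfsf10 and Tnfrsf1a rose most clearly with IFNγ among the ligands and the highly expressed receptors, and Tnfrsf9 and Tnfrsf12a rose with the knockdown. Each is the 250 bases before a RefSeq gene start (GRCm38.p6), 5′ to 3′ on the gene's strand, from chr3:27316827-27317076 (+), chr6:125349473-125349722 (+), chr4:150927749-150927998 (+, the downstream of the 2 starts listed for Tnfrsf9) and chr17:23677450-23677699 (−). Capitals mark matches on either strand to the motifs TTCNNNGAA (GAS, an interferon-gamma-activated site), GAAA, any 2 bases, GAAA (ISRE, bound by interferon regulatory factors), GGG, any 2 bases, TTTCC (NF-κB) and TGANTCA (AP-1).
Tnfsf10: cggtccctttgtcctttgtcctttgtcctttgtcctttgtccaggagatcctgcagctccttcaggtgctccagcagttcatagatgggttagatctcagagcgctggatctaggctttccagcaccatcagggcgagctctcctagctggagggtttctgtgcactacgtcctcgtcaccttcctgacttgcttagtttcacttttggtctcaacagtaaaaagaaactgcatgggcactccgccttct
Tnfrsf1a: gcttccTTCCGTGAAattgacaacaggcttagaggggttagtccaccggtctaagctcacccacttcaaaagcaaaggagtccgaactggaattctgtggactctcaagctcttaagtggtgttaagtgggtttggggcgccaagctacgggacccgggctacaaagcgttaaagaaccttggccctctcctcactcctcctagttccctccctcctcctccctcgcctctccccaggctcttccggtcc
Tnfrsf9: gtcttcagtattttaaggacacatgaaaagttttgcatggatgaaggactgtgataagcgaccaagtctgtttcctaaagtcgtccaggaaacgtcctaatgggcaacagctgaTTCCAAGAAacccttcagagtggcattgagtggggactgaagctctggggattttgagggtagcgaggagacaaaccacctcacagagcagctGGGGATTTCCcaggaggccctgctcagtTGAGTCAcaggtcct
Tnfrsf12a: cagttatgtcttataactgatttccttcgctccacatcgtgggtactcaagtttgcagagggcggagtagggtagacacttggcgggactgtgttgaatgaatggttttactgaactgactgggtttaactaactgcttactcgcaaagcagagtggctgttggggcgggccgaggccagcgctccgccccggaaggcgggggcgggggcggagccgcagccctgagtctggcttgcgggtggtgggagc

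The Tnfrsf1a window held a GAS motif, TTCCGTGAA, starting 244 bases before the gene start. The Tnfrsf9 window held a GAS motif, TTCCAAGAA, at 136 bases, an NF-κB motif, GGGGATTTCC, at 43 bases and an AP-1 motif, TGAGTCA, at 15 bases, while the window at its upstream start held none of the 4. No match was found in the windows of Tnfsf10 and Tnfrsf12a, which says only that these letters are not there. Windows were listed for 30 members, 34 windows in all, and for 12 of the 16 tested. Among the tested members GAS was in a window of 5 and ISRE in a window of 1, Tnfrsf1b. Of those with GAS, Tnfrsf18, Tnfrsf1b and Tnfrsf25 did not pass with IFNγ, Tnfrsf1a rose in both kinds of cell and Tnfrsf9 in knockdown cells. Tnfsf10, Tnfrsf12a, Tnfrsf21 and Ltbr rose in both and Ngfr in knockdown cells, with no GAS in their windows. GAS was in 8 of the 34 and in 7.02% of all 32851 promoter windows, ISRE in 3 and in 2.98%, NF-κB in 3 and in 1.41%, and AP-1 in 6 and in 6.75%. A match is a description of the letters and not a binding site.

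Among the ligands, Tnfsf10 changed most. It encodes TRAIL, which can trigger apoptosis through death receptors. Its level was 0.0456, 0 and 0 CPM in the 3 shRFP libraries, 0.0607, 0.125 and 0.122 in shSdc1, 4.17, 3.80 and 3.59 in shRFP with IFNγ, and 8.54, 8.56 and 9.73 in shSdc1 with IFNγ. It was at the edge of detection without IFNγ, and with IFNγ every knockdown library stood above every control library. In control cells the counts went from 1 to 175 over the group, a log2 rise of 7.20 ± 0.42 (edgeR adjusted p = 9.02e-11). The scaled ratio of counts was 205, with a 95% exact interval of 36.4 to 8162 that covers counting error only. The 1 count lay in shRFP replicate 1, and without that library the group was at 0. In knockdown cells the counts went from 5 to 450, a log2 rise of 6.34 ± 0.29 (adjusted p = 1.45e-12) and a scaled ratio of 86.9 (interval 37.0 to 269). The difference between these responses, -0.85 ± 0.84 on the log2 scale, did not pass the edgeR interaction test (adjusted p = 0.632). Between knockdown and control with IFNγ the log2 difference was 1.21 ± 0.16 (adjusted p = 7.28e-06). Without IFNγ the 5 counts against 1 gave a ratio of 5.46 with an interval of 0.610 to 258, and the test was not passed (adjusted p = 0.169).

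The other ligands tested were Tnfsf9, the ligand of CD137, and Tnfsf12, which encodes TWEAK, the ligand of the receptor Tnfrsf12a. Tnfsf9 had means of 3.22 ± 0.822 (SD, n = 3), 2.83 ± 0.266, 2.95 ± 0.145 and 2.66 ± 0.376 CPM in the control and knockdown groups without IFNγ and the control and knockdown groups with it, the order used for all series of 4 values that follow. Neither passed the test in any comparison. In the annotation used here 48.3% of the exon bases of Tnfsf12 are shared with the readthrough gene Tnfsfm13, so its counts are uncertain. Ligands as a whole made up 1.61% of the summed CPM of the family in shRFP, 1.04% in shSdc1, 2.09% in shRFP with IFNγ and 2.62% in shSdc1 with IFNγ.

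Of the receptors with a death domain, Tnfrsf1a was the most abundant. It encodes TNFR1, the main receptor of TNF on most cells. Its level was 93.1, 91.0 and 90.6 CPM in shRFP, 103, 95.6 and 98.3 in shSdc1, 151, 161 and 157 in shRFP with IFNγ and 152, 149 and 148 in shSdc1 with IFNγ. Every library with IFNγ stood above every library without it. The rise was 0.77 ± 0.04 on the log2 scale in control cells (edgeR adjusted p = 5.04e-11) and 0.60 ± 0.04 in knockdown cells (adjusted p = 2.36e-09). The knockdown did not pass the test, with 0.11 ± 0.04 without IFNγ (adjusted p = 0.0677) and -0.06 ± 0.04 with it (adjusted p = 0.278).

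Tnfrsf21, which encodes death receptor DR6, showed the largest rise with IFNγ among the receptors. Its level was 0.547, 0.119 and 0.691 CPM in shRFP and 0.790, 1.00 and 1.22 in shSdc1. With IFNγ it was 5.75, 4.67 and 5.49 CPM in shRFP and 5.64, 4.73 and 4.53 in shSdc1. The libraries with IFNγ all lay above those without it, and with IFNγ the knockdown and control libraries overlapped. The log2 rise was 3.53 ± 0.30 in control cells (edgeR adjusted p = 2.43e-08) and 2.30 ± 0.26 in knockdown cells (adjusted p = 1.46e-06). The difference between these, -1.23 ± 0.44, did not pass (adjusted p = 0.0827), but it did with no filter on low counts (-1.25, adjusted p = 0.0380) and without shRFP replicate 3 (-1.56, adjusted p = 0.0497). The knockdown raised it by 1.14 ± 0.39 in unstimulated cells (adjusted p = 0.0347), on 49 counts against 24, and this call ended without shRFP replicate 2, shSdc1 replicate 2 or shSdc1 replicate 3 and in a fit of the groups compared alone. With IFNγ present the value was -0.09 ± 0.21 (adjusted p = 0.771).

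Ngfr, which encodes the low-affinity nerve growth factor receptor and marks neural crest cells, was low in control cells and higher with the knockdown. Its level was 0.319, 0.653 and 0.138 CPM in shRFP, 2.86, 2.19 and 1.83 in shSdc1, 0.992, 0.561 and 0.845 in shRFP with IFNγ and 5.31, 5.97 and 4.80 in shSdc1 with IFNγ. No control library reached a knockdown library, and the knockdown libraries with IFNγ were the highest. The knockdown raised Ngfr by 2.59 ± 0.36 on the log2 scale without IFNγ (edgeR adjusted p = 1.67e-05) and by 2.74 ± 0.29 with it (adjusted p = 4.54e-07), and the first value was 3.18 without shRFP replicate 2. IFNγ raised it by 1.22 ± 0.24 in knockdown cells (adjusted p = 0.000574). In control cells the value was 1.07 ± 0.44 (adjusted p = 0.0706), and the difference between these responses was 0.16 ± 0.56 (adjusted p = 0.897). Without shRFP replicate 2 or shRFP with IFNγ replicate 2 the rise in control cells passed.

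Tnfrsf10b, the death receptor of TRAIL in the mouse, stood at 3.37, 4.75 and 2.90 CPM in shRFP, 5.47, 5.38 and 5.80 in shSdc1, 3.97, 4.11 and 3.03 in shRFP with IFNγ and 6.71, 6.62 and 5.26 in shSdc1 with IFNγ. Every knockdown library lay above every control library, with or without IFNγ. It rose with the knockdown by 0.59 ± 0.18 (edgeR adjusted p = 0.0186) and, with IFNγ present, by 0.74 ± 0.18 (adjusted p = 0.00332). The first of these calls ended without shRFP replicate 1, shRFP replicate 3 or shSdc1 replicate 3. IFNγ gave 0.01 ± 0.19 in control cells (adjusted p = 0.964) and 0.16 ± 0.17 in knockdown cells (adjusted p = 0.507), so its ligand Tnfsf10 rose where the receptor did not pass the test.

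Tnfrsf22, a decoy receptor of TRAIL in the mouse, was the member that fell with the knockdown in both states. Its level was 12.2, 13.3 and 14.4 CPM in shRFP, 10.1, 10.4 and 10.4 in shSdc1, 19.3, 19.6 and 20.2 in shRFP with IFNγ and 14.8, 14.9 and 12.9 in shSdc1 with IFNγ. The knockdown libraries lay below the control libraries of the same state without overlap, and IFNγ raised both kinds of cell. Tnfrsf22 fell by 0.37 on the log2 scale (SE 0.09, edgeR adjusted p = 0.00586) without IFNγ and by 0.47 (SE 0.09, adjusted p = 0.000345) with it. IFNγ raised it by 0.57 ± 0.09 in control cells (adjusted p = 6.16e-05) and by 0.47 ± 0.09 in knockdown cells (adjusted p = 0.000732). Of the 50-base stretches of its transcripts, 17.3% also occur in its neighbour Tnfrsf23, another decoy receptor with too few counts to test, so its counts are uncertain to that extent.

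**Figure D2:**
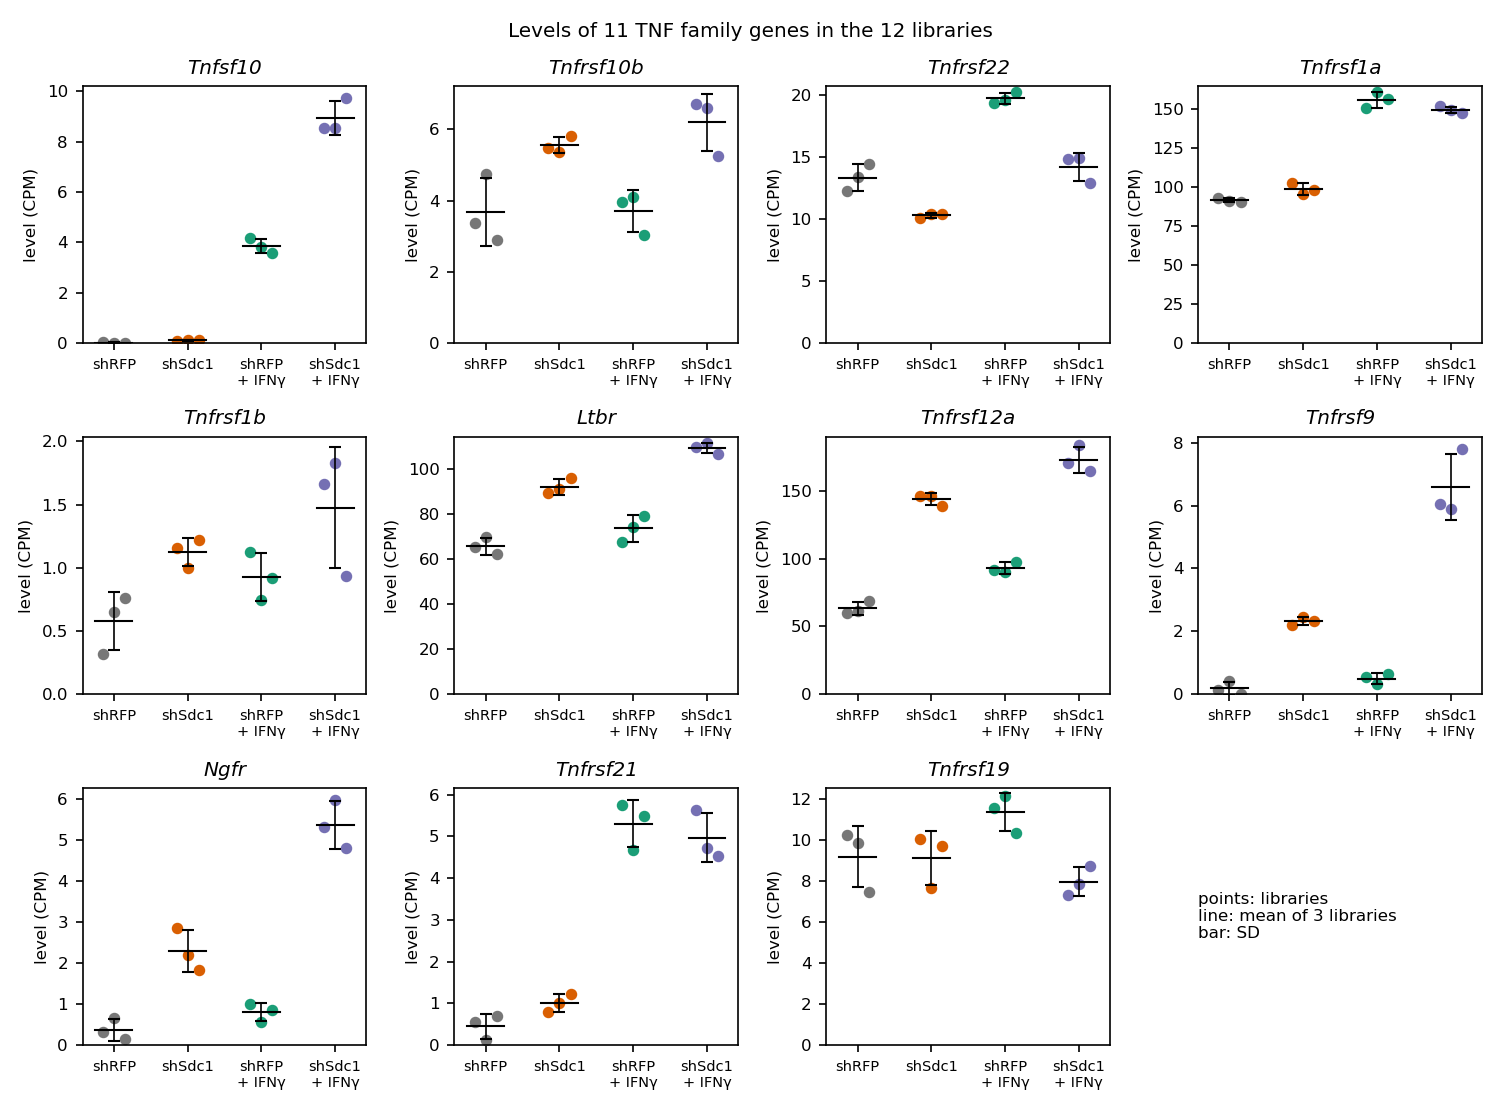
Level in CPM (vertical axes, each from 0) of the 11 members named with values per library, in the 4 groups; points are the 12 libraries, lines the means of 3 and bars the SD. Tnfsf10 stands at 3.59 CPM or more in every library with IFNγ and at 0.125 or less without it, and Tnfrsf9 and Ngfr have all 6 knockdown libraries above all 6 control libraries.

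Of the receptors without a death domain, Tnfrsf12a had the clearest difference with the knockdown. It encodes Fn14, the receptor of TWEAK. Its level was 59.8, 61.8 and 69.1 CPM in shRFP, 146, 147 and 139 in shSdc1, 91.8, 90.2 and 98.0 in shRFP with IFNγ and 171, 184 and 165 in shSdc1 with IFNγ. The 4 groups did not overlap. The knockdown raised it by 1.18 ± 0.06 on the log2 scale without IFNγ (edgeR adjusted p = 2.14e-11) and by 0.89 ± 0.06 with it (adjusted p = 5.30e-10). IFNγ raised it by 0.56 ± 0.06 in control cells (adjusted p = 5.11e-07) and by 0.27 ± 0.06 in knockdown cells (adjusted p = 0.00106).

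The difference between the responses of Tnfrsf12a to IFNγ, -0.29 ± 0.08 on the log2 scale, passed the interaction test (edgeR adjusted p = 0.0286). It was the 1 member of 16 to do so (6.25%), where 9.73% of all genes passed, 4.58% higher and 5.15% lower. With 1 call the share of members cannot be told apart from that of all genes. At an unadjusted p under 0.05 there were 4 lower and 0 higher, and DESeq2 gave 1 lower and 0 higher. The share of all genes at the unadjusted threshold was not counted, so that split has nothing to be compared with. The call ended without shRFP replicate 1, shRFP replicate 2, shSdc1 replicate 1, shSdc1 replicate 2, shSdc1 with IFNγ replicate 1 or shSdc1 with IFNγ replicate 3, each left out alone, with an adjusted p of at most 0.0864 over all alternatives.

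Tnfrsf9 encodes CD137, a costimulatory receptor known from activated T cells. Its level was 0.137, 0.415 and 0 CPM in shRFP, 2.19, 2.44 and 2.32 in shSdc1, 0.529, 0.312 and 0.634 in shRFP with IFNγ and 6.07, 5.91 and 7.80 in shSdc1 with IFNγ. The knockdown libraries did not overlap the control libraries, and the counts of a group went from 10 to 113 without IFNγ and from 22 to 330 with it. On the log2 scale the rise with the knockdown was 3.57 ± 0.43 (edgeR adjusted p = 3.29e-06) and 3.74 ± 0.32 (adjusted p = 3.93e-08). Without shRFP replicate 2, which held 7 of the 10 counts of its group, the first value was 4.70 (adjusted p = 2.24e-06). IFNγ raised it by 1.50 ± 0.24 in knockdown cells (adjusted p = 9.86e-05). In control cells the value was 1.34 ± 0.59 (adjusted p = 0.0940), which passed without shRFP replicate 2, and the difference between the responses was 0.16 ± 0.84 (adjusted p = 0.932). Of the 11 leukocyte markers 3 were tested, and 2 of these rose with the knockdown as well: Cd68 by 1.54 ± 0.18 without IFNγ and 1.20 ± 0.15 with it, and Lyz2 by 1.44 ± 0.35 and 1.24 ± 0.32. Both are known from myeloid cells, Cd3e and 2 other markers had 0 counts in every library, and the part of such cells in the level of Tnfrsf9 was not tested.

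Ltbr, the lymphotoxin beta receptor, which activates the alternative NF-κB pathway, stood at 65.3, 69.8 and 62.3 CPM in shRFP, 89.4, 91.2 and 96.3 in shSdc1, 67.6, 74.6 and 79.5 in shRFP with IFNγ and 110.1, 112 and 107 in shSdc1 with IFNγ. Knockdown libraries lay above control libraries throughout. It rose with the knockdown by 0.49 ± 0.06 without IFNγ (edgeR adjusted p = 2.84e-06) and by 0.57 ± 0.06 with it (adjusted p = 3.04e-07). With IFNγ it rose by 0.25 ± 0.06 in knockdown cells (adjusted p = 0.00234). The rise in control cells, 0.17 ± 0.06 (adjusted p = 0.0371), was within the overlap of the groups and ended with upper-quartile scaling, in a fit of the groups compared alone, and without shRFP replicate 1, shRFP replicate 3, shRFP with IFNγ replicate 2 or shRFP with IFNγ replicate 3.

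Tnfrsf1b, which encodes TNFR2, was far lower than Tnfrsf1a. Its level was 0.319, 0.653 and 0.760 CPM in shRFP, 1.15, 1.00 and 1.22 in shSdc1, 1.12, 0.748 and 0.916 in shRFP with IFNγ and 1.66, 1.83 and 0.933 in shSdc1 with IFNγ. Of the 4 pairs of groups compared, only unstimulated knockdown and control cells stood apart, and their log2 difference of 1.02 ± 0.37 was just past the threshold (edgeR adjusted p = 0.0490). That call ended under 9 of 12 alternatives, among them DESeq2, no filter and shSdc1 replicate 3 left out, with an adjusted p of up to 0.239. With IFNγ present the knockdown gave 0.68 ± 0.33 (adjusted p = 0.122), which passed without shSdc1 with IFNγ replicate 3.

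Tnfrsf19, also called TROY, fell with the knockdown when IFNγ was present. Its level was 10.3, 9.85 and 7.46 CPM in shRFP, 10.0, 7.63 and 9.71 in shSdc1, 11.6, 12.1 and 10.4 in shRFP with IFNγ and 7.30, 7.86 and 8.73 in shSdc1 with IFNγ. The unstimulated groups overlapped and the groups with IFNγ did not. The fall with IFNγ was -0.52 ± 0.14 on the log2 scale (edgeR adjusted p = 0.00665), against -0.02 ± 0.14 without it (adjusted p = 0.931), and the difference between these did not pass (-0.50 ± 0.20, adjusted p = 0.115). Tnfrsf4, Tnfrsf18, Tnfrsf25, Tnfsf9 and Tnfsf12, the other 5 members tested, passed in no comparison between groups in the main fit. Their log2 fold changes were -0.54 to 0.44, with edgeR adjusted p of 0.0677 to 0.997 and group means of 0.589 to 3.40 CPM. The lowest fold change and the lowest adjusted p belonged to Tnfrsf25, death receptor DR3, after IFNγ in knockdown cells, where the groups did not overlap. It was the 1 member lower there at an unadjusted p under 0.05. Tnfrsf4 also had groups that did not overlap, with the knockdown without and with IFNγ and after IFNγ in knockdown cells. Its edgeR adjusted p there was 0.343, 0.265 and 0.773. The exons of Tnfrsf18 and Tnfsf9 overlap an annotated gene on the other strand over 27.2% and 14.9% of their bases, and reads from both cannot be told apart without strand.

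The order of levels between genes was set per kilobase of exon, since longer transcripts give more reads. In shRFP, Tnfrsf1a stood at 35.3 ± 0.526 (SD, n = 3) CPM per kilobase, Tnfrsf12a at 32.9 ± 2.53 and Ltbr at 27.9 ± 1.60, and Tnfrsf1a and Tnfrsf12a overlapped. In shSdc1, Tnfrsf12a was first at 74.6 ± 2.21 CPM per kilobase, above Ltbr at 39.2 and Tnfrsf1a at 38.2, which overlapped. With IFNγ the order was Tnfrsf1a at 60.3, Tnfrsf12a at 48.3 and Ltbr at 31.4 in control cells, and Tnfrsf12a at 89.8, Tnfrsf1a at 57.7 and Ltbr at 46.6 in knockdown cells. In CPM these 3 receptors held 85.5, 88.9, 85.4 and 86.8% of the summed level of the family in the 4 groups, and the sum itself was 258, 377, 379 and 498 CPM.

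Below these 3, the order per kilobase moved with the group. Tnfrsf9 went from position 15 of 16 in shRFP, at 0.0676 CPM per kilobase, to position 9 in shSdc1, at 0.851, and to position 5 in shSdc1 with IFNγ, at 2.42 ± 0.385. In shRFP with IFNγ it was the last of the 16, at 0.181 CPM per kilobase. Tnfsf10 was last in shRFP at 0.00289 CPM per kilobase, position 9 in shRFP with IFNγ at 0.732 and position 7 in shSdc1 with IFNγ at 1.70. Tnfrsf22 held position 4 in all 4 groups. Many neighbours in the lower order overlapped: in shSdc1 with IFNγ, Tnfrsf9 overlapped Tnfsf9 below it, and Tnfsf10 overlapped Tnfrsf19.

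**Figure D3:**
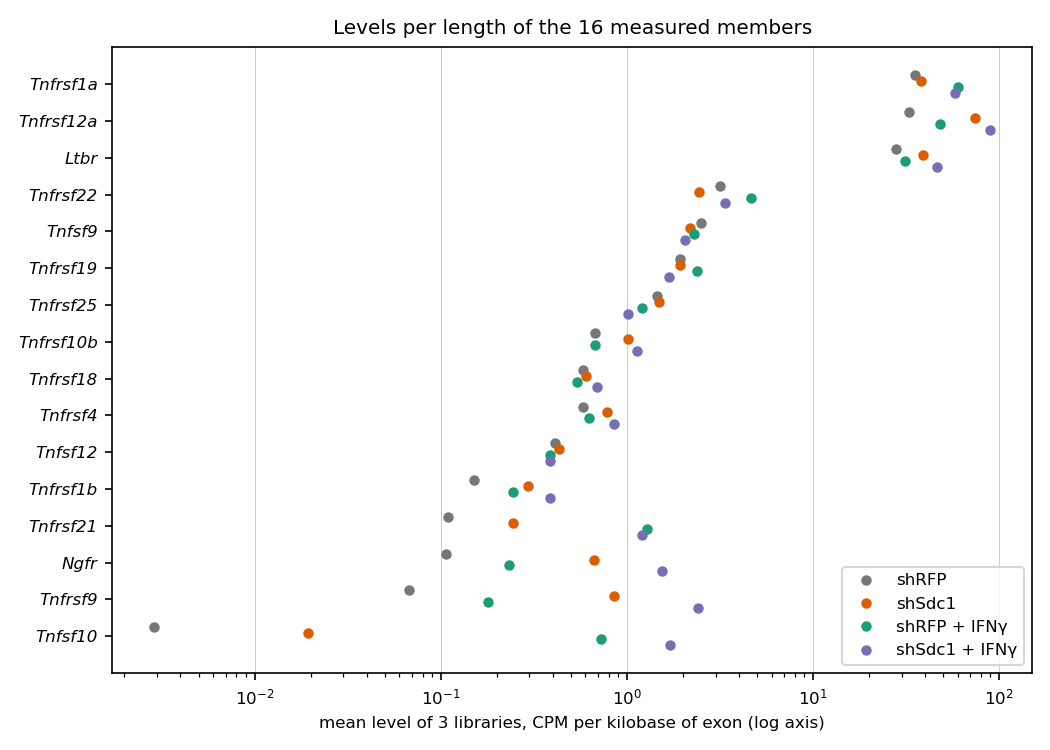
Mean level of 3 libraries in CPM per kilobase of exon (horizontal log axis) of the 16 members tested, 1 row each in the order of shRFP, with a point for each of the 4 groups. Tnfrsf1a, Tnfrsf12a and Ltbr lie at 27.9 or more in every group, and the points of Tnfsf10 spread farthest, from 0.00289 to 1.70.

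The other 22 members had too few counts to test, with at most 12 counts in a library. Tnfrsf13b, Tnfsf11, Tnfsf14, Tnfsf4 and Tnfsf8 had 0 counts in all 12 libraries, which allows up to 0.0151 CPM over the series at 3 counts. A further 6 had at most 3 counts in all, Cd40 and Ltb among them with 3 each and Fasl with 2. Another 4, Lta among them with 7, had 4 to 19 counts, and 7 had 20 or more. Tnf itself, the founding ligand, had 2 counts over the 3 shRFP libraries, 7 in shSdc1, 7 in shRFP with IFNγ and 27 in shSdc1 with IFNγ. Its ratio between knockdown and control with IFNγ was 3.46 (95% exact interval 1.47 to 9.41, counting error only).

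Fas, the receptor of Fas ligand, had 1, 2, 4 and 16 counts in the same groups, and its ratio between IFNγ and none in knockdown cells was 7.72 (interval 1.82 to 69.2). Tnfrsf11b, which encodes the decoy osteoprotegerin, had 10, 12, 20 and 32 counts, with a ratio between IFNγ and none of 2.35 (interval 1.05 to 5.62) in control cells and 2.57 (interval 1.29 to 5.49) in knockdown cells. In a fit with no filter on low counts 0 of the 17 with a count passed the edgeR test in any comparison. At an unadjusted p under 0.05 this fit had 2 higher with the knockdown in the presence of IFNγ, Tnf and Tnfrsf23, and 3 higher with IFNγ in knockdown cells, Tnf, Fas and Tnfrsf11b. For these 3 genes the interval covers counting error and not the spread between libraries.

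Of 38 other genes of TNF receptor signalling, in lists of adaptors and kinases, the death arm, brakes and sheddases, 37 were tested, all but Ripk3. With the knockdown 13 rose and 2 fell without IFNγ, where 14% of all genes tested were higher and 14.6% lower. With IFNγ present 16 rose and 0 fell (3 lower at an unadjusted p under 0.05, and 0 by DESeq2), where the shares of all genes were 18.9% and 17.4%. The 2 lower without IFNγ became 1 in 9 of 12 alternatives, among them each of the 6 libraries left out, and the 0 lower with IFNγ became 1 or 2 without replicate 1 or 3 of either group with IFNγ. After IFNγ 16 rose and 3 fell in control cells, where 17.2% of all genes were higher and 14.4% lower, and upper-quartile scaling gave 5 lower. In knockdown cells 23 rose and 1 fell, where the shares were 17.5% and 13%. In the interaction 6 were higher, where 4.58% of all genes were, and DESeq2 also gave 6. Their median log2 fold changes were 0.06, 0.14, 0.16 and 0.31, against 0, 0.02, -0.01 and 0.00 over all genes. The genes named from these lists were picked after their values were seen.

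Of the 19 adaptors and kinases, 4 rose with the knockdown without IFNγ and 6 with it, where 14% and 18.9% of all genes did. After IFNγ 7 rose and 1 fell in control cells, and 10 rose in knockdown cells, against 17.2% and 17.5% of all genes higher. Rnf31, which encodes the linear ubiquitin ligase HOIP, rose with IFNγ by 1.53 ± 0.06 in control cells and by 1.43 ± 0.06 in knockdown cells (edgeR adjusted p = 3.36e-13 and 8.67e-13). Ripk1, the kinase bound to TNFR1, had means of 46.7 ± 2.43 (SD, n = 3), 55.5 ± 1.60, 68.6 ± 4.76 and 78.8 ± 2.47 CPM in the 4 groups, and it rose in each of the 4 comparisons. Traf5, an adaptor of costimulatory receptors, stood at 0.485 ± 0.167, 1.41 ± 0.367, 1.25 ± 0.199 and 2.36 ± 0.519 CPM. It rose by 1.56 ± 0.35 with the knockdown without IFNγ (adjusted p = 0.00225) and by 1.39 ± 0.36 with IFNγ in control cells (adjusted p = 0.00634).

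Of the 8 genes tested of the death arm, 4 rose and 2 fell with the knockdown without IFNγ, where 14% of all genes were higher and 14.6% lower, and 2 rose with it, where 18.9% were higher. With IFNγ 5 rose in control and in knockdown cells, where 17.2% and 17.5% of all genes did. Bid, which links death receptors to mitochondria, had means of 34.2 ± 1.21, 59.0 ± 1.12, 78.9 ± 1.14 and 127 ± 4.73 CPM (SD, n = 3) in the 4 groups, and it rose in each of the 4 comparisons, by 0.69 to 1.21 on the log2 scale. Mlkl, the executor of necroptosis, rose by 2.01 ± 0.05 with IFNγ in control cells (edgeR adjusted p = 3.26e-17) and by 1.83 ± 0.05 in knockdown cells (adjusted p = 1.04e-16). Cflar, which encodes the caspase-8 inhibitor c-FLIP, fell by 0.31 on the log2 scale with the knockdown in unstimulated cells (SE 0.05, adjusted p = 0.000168) and rose with IFNγ, by 0.35 ± 0.05 in control cells and by 0.68 ± 0.05 in knockdown cells. The difference between these, 0.33 ± 0.07, passed (adjusted p = 0.00894).

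Of the 6 brakes, 3 rose with the knockdown without IFNγ and 4 with it, where 14% and 18.9% of all genes did. After IFNγ 4 rose in control cells and 5 in knockdown cells, where 17.2% and 17.5% of all genes did. Nfkbia, which encodes the NF-κB inhibitor IκBα and is itself a target of NF-κB, had means of 29.4 ± 1.20, 44.0 ± 1.42, 28.1 ± 2.01 and 72.8 ± 2.56 CPM (SD, n = 3) in the 4 groups. It rose with the knockdown by 0.58 ± 0.06 without IFNγ (edgeR adjusted p = 5.44e-07) and by 1.38 ± 0.06 with it (adjusted p = 3.49e-12), and the difference, 0.79 ± 0.09, passed (adjusted p = 2.11e-05). Nfkbie, a related inhibitor, rose by 0.67 ± 0.10 and 1.43 ± 0.09, with a difference of 0.76 ± 0.13 that passed (adjusted p = 0.00162). Tnfaip3, which encodes the deubiquitinating enzyme A20, stood at 1.08 ± 0.261, 2.15 ± 0.531, 1.39 ± 0.148 and 4.19 ± 0.626 CPM and rose with the knockdown in both states (adjusted p = 0.00648 and 2.98e-05).

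Of the 4 genes of shedding, which release TNF and its receptors from the cell surface, 2 rose with the knockdown without IFNγ and 4 with it, where 14% and 18.9% of all genes did. After IFNγ 2 fell in control cells, where 14.4% of all genes fell, while 3 rose and 1 fell in knockdown cells, where 17.5% rose and 13% fell. Counts out of so few genes give coarse shares. Rhbdf2, the partner of the sheddase ADAM17, had means of 41.3 ± 3.25, 39.1 ± 3.63, 33.3 ± 5.01 and 48.5 ± 1.86 CPM (SD, n = 3) in the 4 groups. With IFNγ it rose by 0.31 ± 0.09 in knockdown cells and fell by 0.31 (SE 0.09) in control cells, and the difference of 0.62 ± 0.13 passed (edgeR adjusted p = 0.00583). The fall ended without shRFP replicate 3 or shRFP with IFNγ replicate 2, and the rise without shSdc1 replicate 1. Of 7 family genes whose symbols lie outside the rule 3 were tested, and Eda2r, a receptor of ectodysplasin A2, rose with the knockdown in the presence of IFNγ by 1.76 ± 0.36 (adjusted p = 0.000891).

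**Figure D4:**
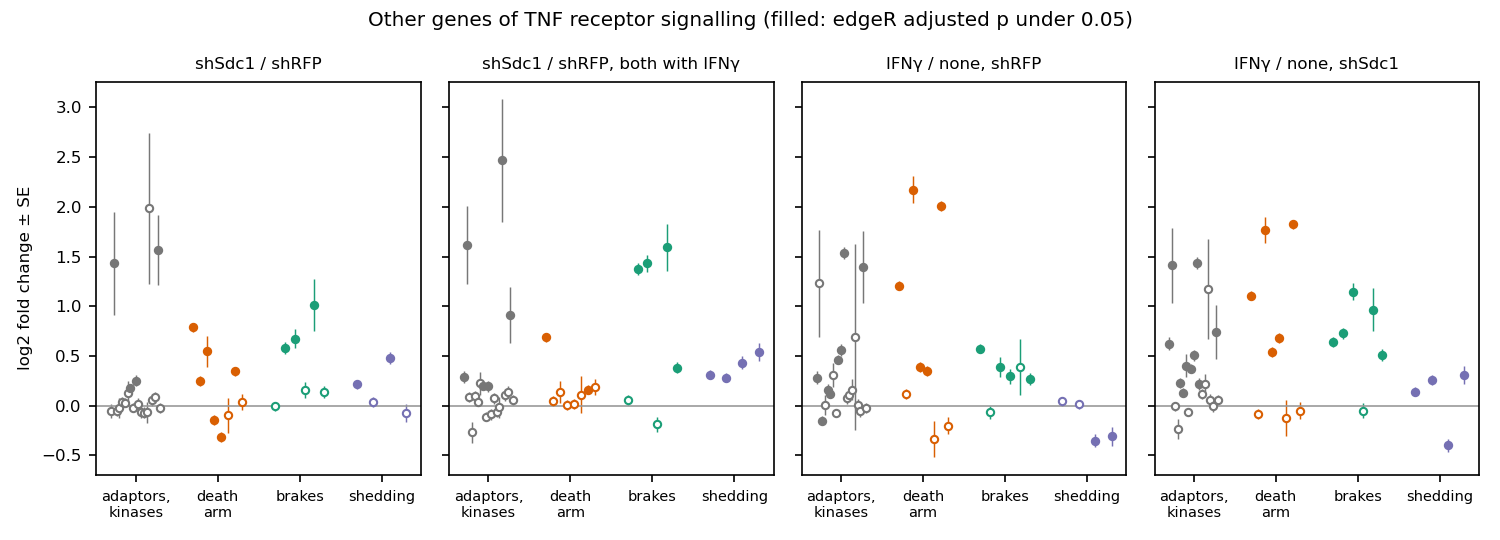
Log2 fold changes with SE (vertical axis) of the 37 other genes of TNF receptor signalling tested, by list, in the 4 comparisons between groups; filled points passed the edgeR test at an adjusted p under 0.05. The brakes show 3, 4, 4 and 5 filled points of 6, all above 0.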

How the data were processed

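Whole-number raw counts per gene, as the authors deposited them, were analysed for 12 libraries (mRNA libraries sequenced in pairs on an Illumina HiSeq, per the labels). Tools listed in the submitters' processing notes are HTSeq, HISAT2 2.0.5 and Trimmomatic, with the build GRCm39; of how they were used, the gene annotation and strandedness nothing is given in the sources used here. Symbols, exon lengths and transcript overlaps came from GENCODE M21 (GRCm38), which gave 52083 of the 56093 entries a symbol, and promoters from RefSeq (GRCm38.p6).

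Counts were scaled by TMM and filtered by filterByExpr (minimum count 10, minimum total 15), and 14089 of 27472 genes with a count remained. All 12 libraries entered 1 model, with a coefficient for each group, by the quasi-likelihood test of edgeR 4.0.16 in R 4.3.3 (prior count 0.125). Its common biological coefficient of variation was 0.0633. Tests were two-sided and adjusted over all genes of a comparison. Shares of all genes were counted at the adjusted threshold only. The SE is the log2 fold change over the square root of F. Count ratios carry 95% exact intervals on the counts added up over a group, so they hold counting error alone and not the spread between libraries. Reads copied by PCR are not separate molecules, so even the counting error may be larger. The fit was tested on simulated data.

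Members that reached a group mean of 1 CPM and passed in at least 1 comparison between groups are given per library, and other members by ranges and counts. Members, lists and tests were chosen with earlier results of these data known. Alternatives were DESeq2 size factors, upper-quartile scaling, no filter, a replicate block, only the groups compared, the DESeq2 1.42.0 Wald test, and leaving out each library.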

Additional observations from a re-analysis of the deposited data

Results flagged for a closer look

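The response of Tnfrsf12a to IFNγ differed between control and knockdown cells by -0.29 ± 0.08 on the log2 scale (edgeR interaction test, adjusted p = 0.0286), since it rose by 0.56 ± 0.06 in control cells and by 0.27 ± 0.06 in knockdown cells. It was listed because the difference between the responses was itself tested and passed. Tnfrsf12a was higher in the knockdown libraries than in the control libraries in both states, and the call ended when any of 6 of the 12 libraries was left out.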

How the results depend on the processing

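Of 30 called values of the 11 members named per library in the 4 comparisons between groups, 26 stayed past the threshold under every alternative, 4 ended under at least 1 and 0 changed sign; of 14 uncalled values, 3 passed under at least 1. Upper-quartile scaling and a fit of only the groups compared each gave 1 member lower, instead of 0, with IFNγ in knockdown cells. In each case it was not among the 11 named per library. No filter gave 2 members lower in the interaction instead of 1. Leaving out 1 library gave 4 to 6 members higher with the knockdown without IFNγ and 0 to 2 lower in the interaction. The uncalled value of Tnfrsf10b with IFNγ in control cells was -0.039 with upper-quartile scaling and -0.11 to 0.23 with 1 library left out. Other uncalled values that crossed 0 with 1 library left out were Tnfrsf19 with the knockdown without IFNγ (-0.14 to 0.091) and the interactions of Ngfr (-0.44 to 0.47), Tnfrsf10b (-0.066 to 0.27), Tnfrsf1b (-0.57 to 0.0085) and Tnfrsf9 (-0.96 to 0.61). Of 40 called values of named signalling genes, 35 passed under every alternative.

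Same-numbered libraries of different groups did not deviate together (r of -0.068 to 0.033 over 18 pairs), which does not tell if they were prepared together. With the replicate number as a block, 6 members rose and 1 fell with the knockdown without IFNγ, the call of Tnfrsf1b having ended; the other counts were 6 and 2 with IFNγ, 6 and 0 and 8 and 0 for IFNγ in control and knockdown cells, and 0 and 1 in the interaction. The filter asked for about 0.613 CPM in at least 3 libraries at these depths, and the 22 members with fewer such libraries were not tested.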
